A study of Mus musculus with 8 samples.

Results

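Cytosolic ribosomal protein genes encode the protein part of the ribosome, the particle that translates mRNA in the cytoplasm. Members were the rows of the deposited table whose symbol is Rpl or Rps with a number, an optional letter and an optional last digit, together with Rpsa, Rplp0, Rplp1 and Rplp2. S6 kinase genes and 7 pseudogene rows ending in -ps were left out. This gave 84 of 24883 rows, 51 of the large and 33 of the small subunit. The rule uses names only, but it was set with earlier results of these data known.

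The values come from RNA sequencing of visual cortex of adult C57BL/6J mice. A locked nucleic acid oligonucleotide, a short modified strand that binds a microRNA and blocks it, was injected into the cortex on postnatal day 122 and tissue was taken on postnatal day 129. The 4 control samples received a scrambled sequence (scrambled replicates 1 to 4) and the 4 treated samples a sequence complementary to miR-29a (anti-miR-29a replicates 1 to 4). All 8 samples therefore share the injection and 7 days of recovery, there is no uninjected group, and no measure of how far miR-29a was blocked was used here. Nothing in the labels ties a sample to 1 animal of its own, so that the spread behind each p-value is between samples and could be technical in part.

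Each ribosome carries 1 copy of most of these proteins, made from mRNAs that are short, abundant and, in many cases, start with a C followed by an uninterrupted run of C and T bases (the 5' terminal oligopyrimidine tract, or TOP). Through this tract the kinase complex mTORC1 and the protein LARP1 set how far the mRNAs are translated. MicroRNAs of the miR-29 family rise as the brain matures and bind mRNAs through their seed, bases 2 to 8. In bulk tissue fewer cells of a type and less RNA per cell cannot be told apart.

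The 3 mature members of the family are shown because the injected oligonucleotide was directed at the first of them and the others share its seed, here in capitals. The sequences are from RefSeq (GRCm38.p6). A listed place of each mature sequence is, in order, chr6:31062673-31062694 on the minus strand, chr1:195037091-195037113 on the plus strand and chr1:195037600-195037621 on the plus strand.
mmu-miR-29a-3p: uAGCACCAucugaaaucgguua
mmu-miR-29b-3p: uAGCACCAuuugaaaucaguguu
mmu-miR-29c-3p: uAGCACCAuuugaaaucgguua

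Few ribosomal protein mRNAs held a match to this seed (TGGTGCT in the mRNA). A match lay in the longest annotated 3' UTR of 5 of 80 members searched (6.25%), against 15.8% of 13032 other tested genes. The members' 3' UTRs were also shorter, with a median of 166.5 nt against 1236.5 nt. Among genes with a 3' UTR under 1000 nt, 0 of 70 members and 5.54% of 5559 other genes held a match, but the median length within this class was 98.5 nt in members and 456 nt in the others. Among those of 1000 nt or more it was the other way, with a match in 5 of 10 members and 23.5% of 7473 other genes. The shares were therefore not compared at equal length. The members with a match were Rpl22, Rpl5, Rps15a, Rps20 and Rps3, each in a 3' UTR of at least 1009 nt. Rps15a, with a 3' UTR of 4728 nt, and Rps3 held more than a single match. The sites of Rpl22 and Rpl5 are shown with the match in capitals, from GRCm38 on the plus strand, at chr4:152332765-152332771 and chr5:107908421-107908427.
Rpl22: cttgagacacagtgTGGTGCTcct
Rpl5: tggaagtgaacaacTGGTGCTaat
The Rpl22 match was in 2 of its 3 coding transcripts and the Rpl5 match in 1 of 2, so that not every annotated form carries it. The log2 differences of these 5 genes, anti-miR-29a minus scrambled, were 0.13 for Rpl22, 0.06 for Rpl5, 0.04 for Rps15a, 0.02 for Rps20 and 0.003 for Rps3, and none passed the test in limma.

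The start of the transcript was searched for the pyrimidine tract of TOP mRNAs. Of 63 members with a RefSeq start window, 13 (20.6%) began at the annotated start with a C and at least 4 further C or T bases, against 813 of 27025 genes (3.01%). Allowing the tract to begin within 20 bases of the annotated start gave 51 members (81.0%) against 53.3% of all genes. The windows below show 10 bases before and 20 from the annotated start, with the tract in capitals. They were taken from the genes that the results turn on and from the longest tract.
Rpl28 (chr7:4792955-4792984, plus strand): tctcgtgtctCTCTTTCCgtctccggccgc
Rps10 (chr17:27635225-27635254, minus strand): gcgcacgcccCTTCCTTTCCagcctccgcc
Rps6 (chr4:86857348-86857377, minus strand): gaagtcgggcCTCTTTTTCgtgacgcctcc
Rplp2 (chr7:141447641-141447670, plus strand): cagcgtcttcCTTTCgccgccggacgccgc
Rps27 (chr3:90213629-90213658, minus strand): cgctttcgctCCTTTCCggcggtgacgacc
Rpl15 (chr14:18270967-18270996, minus strand): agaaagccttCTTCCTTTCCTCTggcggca
The tract ran over 13 bases in Rpl15, 10 in Rps10 and 5 in Rplp2. In the 300-base window around the start, searched on both strands, CCGGAAG was found in 26 of the 63 members (41.3%) against 9.93% of all genes, and AAGATGGC in 6 (9.52%) against 3.19%. GGGCGG was found in 39 members (61.9%) against 38.2%, and TATAAA in 7 (11.1%) against 15.7%. A match is a description of the letters and not of a bound factor.

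Ribosomal protein mRNAs were among the most abundant in the tissue. Of the 84 members, 67 had a mean over the 8 libraries above 100 FPKM, a level passed by 4.05% of all tested genes, and the median of the members' means was 184 FPKM. The highest of the large subunit were Rpl41, which encodes the smallest ribosomal protein, at 688 FPKM, the stalk gene Rplp1 at 658 FPKM and Rpl38 at 453 FPKM. The highest of the small subunit were Rps15 at 563 FPKM, Rps26 at 439 FPKM and Rps29 at 409 FPKM. FPKM are scaled to transcript length, so that these levels can be set beside each other, although the length used for each gene is not given in the sources used here.

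A group of low members stood apart from this range. Rpl10l and Rpl39l, paralogues known from the testis, were listed at 0 in all 8 libraries, while their parents Rpl10 and Rpl39 had means of 166 and 110 FPKM. Rpl3l, a form known from striated muscle, was listed at 0.17, 0, 0.17 and 0.73 FPKM in the scrambled libraries and at 0, 0, 0.25 and 0.06 FPKM in the anti-miR-29a libraries, against a mean of 204 FPKM for Rpl3. These 3 genes were below the filter, which left 81 members tested, 48 of the large and 33 of the small subunit.

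Other paralogues were expressed, some below and some above their parents. Rpl7l1 had a mean of 10.6 FPKM against 162 FPKM for Rpl7, and Rps4l 17.6 FPKM against 201 FPKM for Rps4x, the X-linked gene. Rps27l had a mean of 10.3 FPKM against 24.5 FPKM for Rps27 as listed. It was above Rps27 in scrambled replicates 2 and 3 and in anti-miR-29a replicates 1, 2 and 3. Most of the Rps27 signal lay in another row, as given below. Rpl22l1 was listed at 27.5, 32.6, 31.1 and 32.3 FPKM in the scrambled libraries and at 28.0, 26.1, 25.9 and 37.4 FPKM in the anti-miR-29a libraries. Its parent Rpl22 was listed at 26.4, 20.4, 23.9 and 21.5 FPKM and at 23.7, 24.9, 26.6 and 25.1 FPKM, so that the paralogue was above the parent in 7 of 8 libraries. Neither gene's difference passed the test, at -0.09 (standard error 0.11) for Rpl22l1 and 0.13 (standard error 0.084) for Rpl22 on the log2 scale, and the groups overlapped in both.

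No ribosomal protein gene passed the test between the groups. In limma 0 of 81 members reached an adjusted p under 0.05, where 2 of 13912 genes (0.0144%) did. At an unadjusted p under 0.05 the count was 11 members higher after anti-miR-29a (13.6%, where 7.54% of all genes were) and 1 lower (1.23%, where 3.18% were). The 11 were 5 of the large subunit (Rpl11, Rpl23, Rpl27, Rpl28 and Rplp1) and 6 of the small subunit, among them Rps10, Rps19, Rps26, Rps27a and Rps28, and the 1 lower was Rpl26. In 4 members (4.94%) every anti-miR-29a library was above every scrambled library, near the 4.02% of all genes, and in 0 members was it the reverse, where 2.29% of all genes were. The count of 11 moved with single libraries: it was 5 without scrambled replicate 2, scrambled replicate 4, anti-miR-29a replicate 2 or anti-miR-29a replicate 4, and 17 without scrambled replicate 3. The 1 lower member was no longer counted when scrambled replicates 1, 3 and 4 and anti-miR-29a replicates 1 and 2 were left out one at a time.

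**Figure D1:**
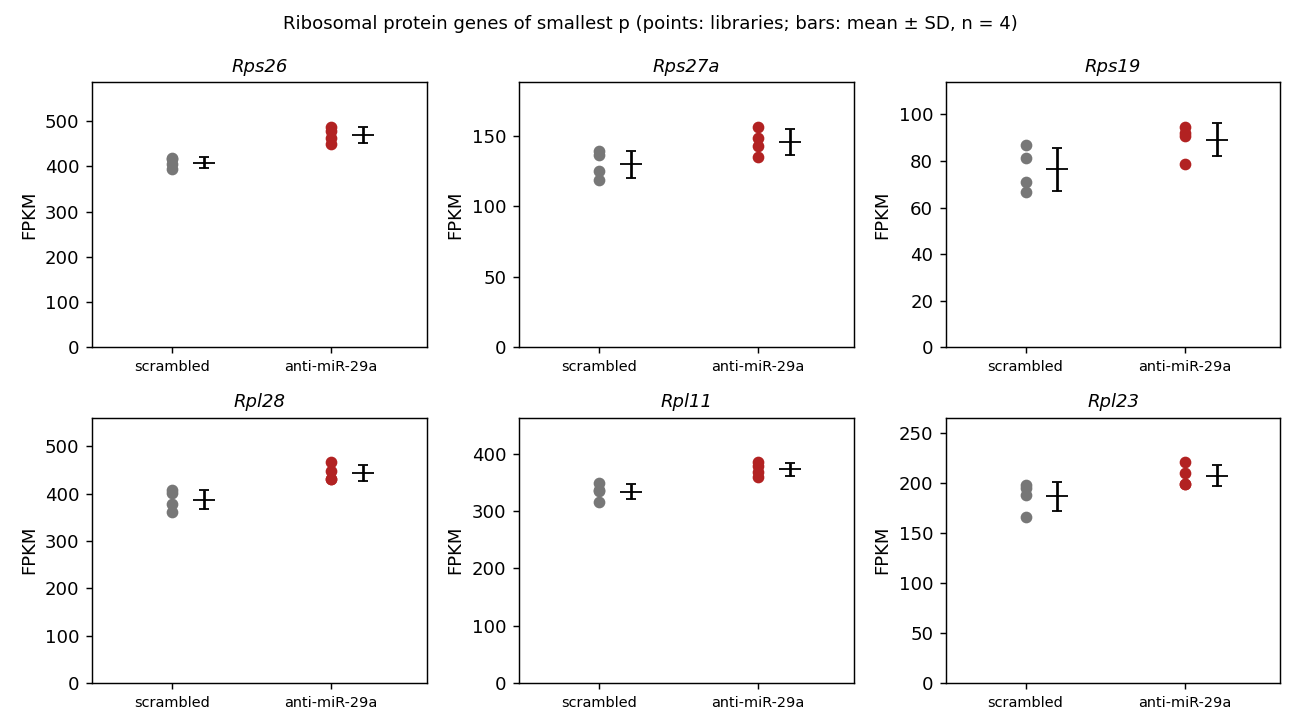
FPKM (vertical axes, from 0) of 6 members of small p in the 4 scrambled (grey) and 4 anti-miR-29a (red) libraries, 1 point per library, with mean and SD beside them. The groups are apart in Rps26, Rpl28, Rpl11 and Rpl23 and overlap in Rps27a and Rps19.

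Rps26, which encodes a small subunit protein at the path of the mRNA through the ribosome, had the smallest p of the members (chr10:128624534-128626747). It was listed at 416, 393, 419 and 405 FPKM in the scrambled libraries and at 479, 488, 449 and 462 FPKM in the anti-miR-29a libraries. The lowest anti-miR-29a library was above the highest scrambled library. The means were 408 ± 11.8 and 469 ± 17.4 FPKM (SD, n = 4), a ratio of 1.15. The log2 difference was 0.20 (standard error 0.039), with an adjusted p of 0.164 in limma and an exact permutation p of 0.0286, the smallest that 4 against 4 can give.

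Rpl28 and Rpl11 had the smallest p of the large subunit. Rpl28 (chr7:4792874-4795066) was listed at 408, 362, 401 and 379 FPKM in the scrambled libraries and at 467, 431, 447 and 431 FPKM in the anti-miR-29a libraries. The groups did not overlap, with a log2 difference of 0.20 (standard error 0.047) and an adjusted p of 0.222 in limma. The gene Ube2s overlaps its exons on the other strand, and the kit does not mark strand, so reads of the pair cannot be told apart. Among other members named here, the same holds for Rps27a (Clhc1), Rps28 (Kank3), Rps10 (Gm15420) and Rpl5 (Fam69a). Rpl11 (chr4:136028265-136053428) forms with Rpl5 and the 5S rRNA a particle that also binds Mdm2, the regulator of p53. It was listed at 337, 335, 348 and 315 FPKM in the scrambled libraries and at 367, 385, 378 and 359.9 FPKM in the anti-miR-29a libraries. These groups did not overlap either, with a log2 difference of 0.16 (standard error 0.041) and an adjusted p of 0.234 in limma. Its partner Rpl5 had a log2 difference of 0.06 (standard error 0.079) and overlapping groups.

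In the remaining genes of small p the groups touched or overlapped. Rpl23 was listed at 194, 166, 198 and 188 FPKM in the scrambled libraries and at 199, 210.0, 199 and 221 FPKM in the anti-miR-29a libraries, apart by less than 1 FPKM. Rps27a, which is made as a fusion to ubiquitin, was listed at 137, 119, 139 and 125 FPKM in the scrambled libraries and at 135, 143, 148.5 and 157 FPKM in the anti-miR-29a libraries, and 1 treated library lay within the scrambled range. The log2 differences were 0.15 for Rpl23 and 0.17 for Rps27a, with adjusted p of 0.415 and 0.396 in limma. Those of Rpl27 (0.23), Rps19 (0.22), which is mutated in Diamond-Blackfan anaemia, Rps28 (0.16), Rps10 (0.11) and Rplp1 (0.10) had adjusted p from 0.402 to 0.434. Scrambled replicate 2 was the lowest of the 8 libraries in Rpl23, Rpl27, Rps10, Rps19, Rps27a, Rps28 and Rplp1.

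The small differences pointed mostly one way. Of the 81 members, 74 (91.4%) had a log2 difference above 0, where 56.6% of all tested genes did, and 51 differed by less than 0.1 in size. The median difference was 0.073, against 0.026 over all tested genes. It was 0.065 in the large subunit, with 42 of 48 above 0, and 0.079 in the small subunit, with 32 of 33 above 0. Members are measured in the same libraries and are not independent of each other, and no test was made of the count or the median.

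**Figure D2:**
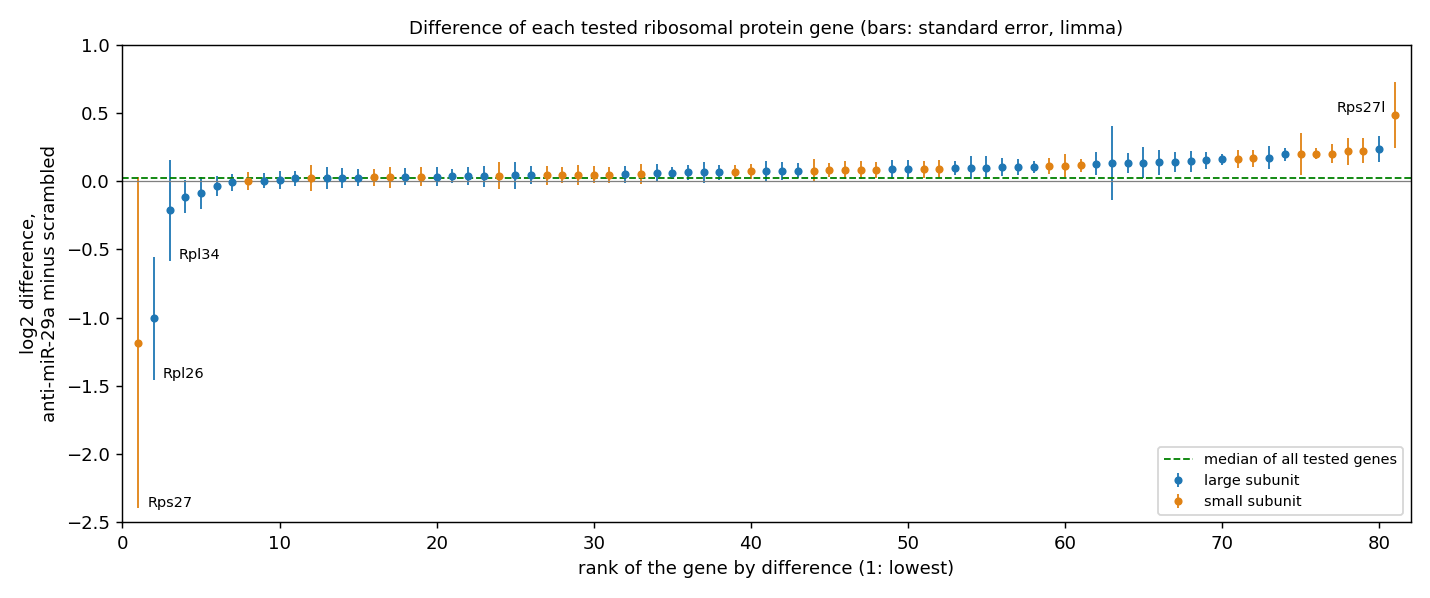
Log2 difference, anti-miR-29a minus scrambled (vertical axis), of each of the 81 tested members in order of size, blue for the large and orange for the small subunit, with the standard error from limma. Most points lie just above 0, and Rps27, Rpl26 and Rpl34 at the left have the longest lower bars.

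The shift was smaller without 1 library. As a deviation from the scrambled mean on the log2 scale, the members' median was 0.064, -0.16, 0.099 and -0.014 in scrambled replicates 1 to 4 and 0.015, 0.12, 0.063 and 0.12 in anti-miR-29a replicates 1 to 4. The groups overlapped, with scrambled replicate 3 above anti-miR-29a replicates 1 and 3. Scrambled replicate 2 was the lowest of the 8 libraries for 64 of 81 members, while its median over all tested genes was -0.004. Without it the members' median difference was 0.027 (0.016 in the large and 0.035 in the small subunit), against 0.020 over all genes, and 52 of 81 members were above 0.

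Summed levels gave the same picture. The 84 members together were listed at 17060, 14798, 17475 and 16136 FPKM in the scrambled libraries and at 16570, 17712, 17089 and 17612 FPKM in the anti-miR-29a libraries. The lowest sum was again that of scrambled replicate 2, and the other 7 libraries of both groups overlapped. Shares were taken of the summed FPKM of tested rows whose longest annotated transcript has at least 200 nt. Members made up 5.46% ± 0.355 in the scrambled and 5.55% ± 0.0697 in the anti-miR-29a libraries (SD, n = 4). The share in scrambled replicate 2 was 4.98%. The ratio of large to small subunit sums was 1.41 ± 0.0107 and 1.39 ± 0.0197 (SD, n = 4), and its ranges of 1.39 to 1.42 and 1.38 to 1.42 overlapped.

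**Figure D3:**
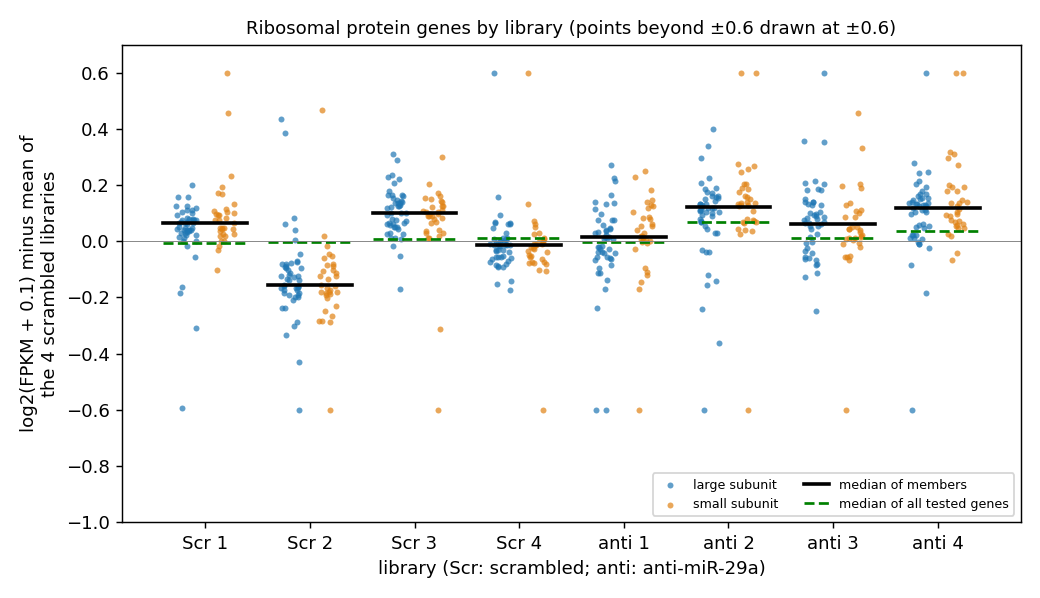
Deviation of each tested member from the mean of the 4 scrambled libraries, in log2 units (vertical axis), by library, blue for the large and orange for the small subunit, with values beyond 0.6 drawn at 0.6. Black bars are the members' medians, lowest at -0.16 in scrambled replicate 2, and dashed green bars the medians of all tested genes, which lie between -0.008 and 0.068.

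Other measures moved between the same libraries. The summed level of 4 blood marker rows was 238 FPKM in scrambled replicate 2, the highest of the 8, where the other scrambled libraries had 21.2 to 95.8 FPKM and the anti-miR-29a libraries 100.2 to 212 FPKM, and 4 of 4 rows were above 0 (median log2 difference 1.11). Astrocyte markers summed to 855, 705, 810 and 700.2 FPKM in the scrambled and to 711, 1040, 833 and 944 FPKM in the anti-miR-29a libraries, with 3 of 5 above 0 (median 0.26). Their 2 highest sums were in anti-miR-29a replicates 2 and 4, where the members' median was also highest, and scrambled replicate 2 was among the 3 lowest. Of the astrocyte markers, Gfap ran from 109 to 392 FPKM over the libraries, Aldoc from 231 to 274 FPKM and Slc1a2 from 254 to 314 FPKM. Oligodendrocyte markers had 0 of 5 above 0 (median -0.18), with sums of 780.3 to 1598 and 866 to 1160 FPKM. Markers of activated macrophages had 4 of 4 tested members above 0 (median log2 difference 0.90), with sums of 25.5 to 39.6 FPKM in the scrambled and 34.3 to 65.0 FPKM in the anti-miR-29a libraries. Markers of meningeal fibroblasts also had 4 of 4 (0.65), with sums of 10.5 to 20.1 and 15.1 to 30.8 FPKM. Microglia markers had 2 of 5 above 0 (median -0.066), endothelial markers 2 of 5 (-0.002) and oligodendrocyte precursor markers 1 of 3 (-0.067). Of the inhibitory neuron markers, 4 of 6 were above 0 (median 0.069). Markers of excitatory neurons summed to 1404 to 1469 and 1343 to 1452 FPKM, and 1 of 4 was above 0. No marker passed the test in limma, and the part of these cells in the members' differences was not tested.

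The members are short, and short genes as a class moved in the same direction. The longest coding transcript of a member had a median of 937 nt (383 to 5179 nt), against 3150 nt for other tested genes, and 47 of 81 were under 1000 nt. Among the 749 other genes of 200 to 1000 nt the median log2 difference was 0.13 and 72.4% were above 0. It was 0.089 from 1000 to 2000 nt, 0.040 from 2000 to 4000 nt, -0.015 from 4000 to 6000 nt and -0.064 from 6000 nt. Members had medians of 0.074 in the shortest class (n = 47), 0.064 in the next (n = 27) and 0.081 from 2000 to 4000 nt (n = 6). In the shortest class the members' median was thus below that of the other genes, while a larger share of members was above 0 (87.2%), and from 1000 to 2000 nt the shares were 96.3% of members and 71.7% of other genes. No test of these differences was made.

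With the dependence on transcript length and GC content removed from each library by a smooth curve, the members' median difference was -0.033, against -0.008 over all genes, and 24 of 81 were above 0. At an unadjusted p under 0.05 there were then 0 members higher and 2 lower. The direction of the members as a group therefore flipped with this setting, and it shrank to 0.012 with 46 of 81 above 0 under quantile normalization. The low level of scrambled replicate 2 was larger in the members than in genes of like length: in the shortest class its median deviation was -0.13 in members and -0.042 in other genes. After removal of the trend its member median was -0.072, still the lowest of the 8, and that of anti-miR-29a replicate 2 was -0.065.

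**Figure D4:**
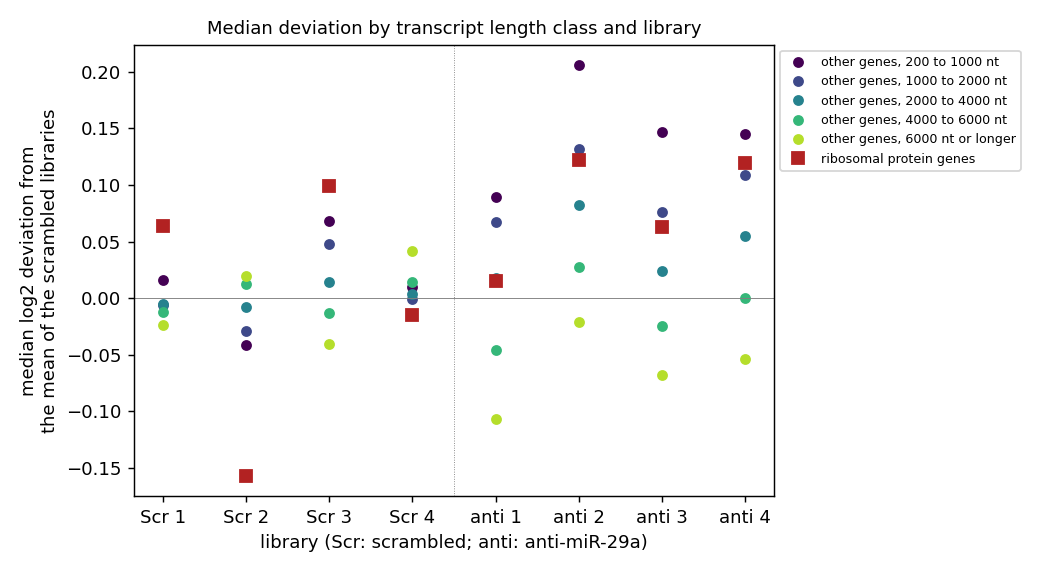
Median deviation from the scrambled mean in log2 units (vertical axis) of other tested genes in 5 classes of transcript length (circles) and of the tested ribosomal protein genes (red squares), by library. In the 4 anti-miR-29a libraries the shortest class lies highest, between 0.090 and 0.21, and the members lie at 0.015 to 0.12.

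Most members varied together over the 8 libraries. Pearson's r between a member's log2 values and the median deviation of the other members was over 0.8 in 43 of 81 members and under 0.5 in 13. This is a description over 8 libraries, which share the low scrambled replicate 2 and the length trend. Rpl41 followed the others most closely among the genes named here (r = 0.98). The members that did so least were Rpl26 (r = -0.31), Rpl22l1 (-0.21), Rpl34 (-0.18) and Rps27 (0.006), chosen after their values were seen.

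In 4 members the table held most of the signal in another row. Of the 81 tested members, 71 had a highest library under 1.5 times the lowest, and 5 had one over 2 times the lowest, namely Rps27, Rpl26, Rpl34, Rps27l and Rpl30. All of these but Rps27l share 100-base windows with a retrogene or pseudogene row of the table. In such stretches of 100 bases the copy is identical to the mRNA, so that a read can fit both. Windows shared with any other annotated gene made up 57.9% for Rps27, 65.1% for Rpl30, 23.1% for Rpl26 and 2.82% for Rpl34. Identity over the whole copy was not computed.

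Rps27, which encodes a small subunit protein, was listed at 51.0, 5.64, 3.21 and 66.5 FPKM in the scrambled libraries and at 6.34, 4.61, 1.29 and 57.6 FPKM in the anti-miR-29a libraries. Its retrogene row Rps27rt (chr9:114982366-114982739) was listed at 379, 383, 458 and 336 FPKM and at 422, 419, 508 and 363 FPKM. The 3 libraries with high Rps27, scrambled replicates 1 and 4 and anti-miR-29a replicate 4, included the 2 with the lowest Rps27rt. The sums of both rows ran from 388 to 509 FPKM. The highest library was 51.6 times the lowest for Rps27 and 1.31 times for the sum.

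Rpl26 behaved alike. It was listed at 29.9, 44.4, 30.1 and 33.2 FPKM in the scrambled libraries and at 6.34, 16.7, 43.4 and 17.5 FPKM in the anti-miR-29a libraries, so that 3 of 4 treated libraries were below all controls. The predicted gene Gm15772 (chr5:3236431-3236868) held 282 to 367 FPKM, and the sums ran from 326 to 392 FPKM. For Rpl34 the row Rpl34-ps1 held 83.9 to 159 FPKM against 10.7 to 42.5 FPKM for the gene, with sums from 126 to 175 FPKM. For Rpl30 the row Gm12191 held 196 to 219 FPKM against 6.55 to 16.1 FPKM, with sums from 204 to 228 FPKM.

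**Figure D5:**
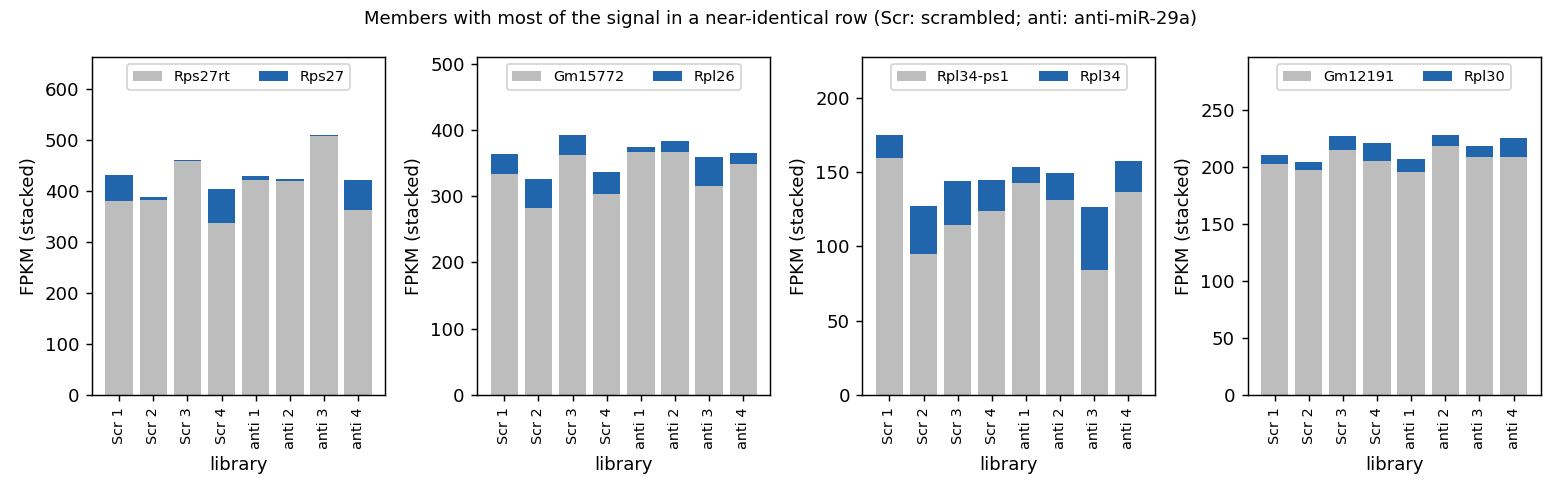
Stacked FPKM (vertical axes, from 0) of 4 members (blue) and the row that shares sequence with each (grey) in the 8 libraries. The grey rows hold 83.8% to 94.9% of each mean sum, and the highest sum is 1.12 to 1.38 times the lowest, where the highest blue part is 2.46 to 51.6 times the lowest.

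Adding the copy rows to their member reversed the largest negative differences. That of Rps27 went from -1.18 (standard error 1.21) to 0.08 (0.072), and that of Rpl26 from -1.0 (0.45) to 0.07 (0.057), so that Rpl26 was no longer under an unadjusted p of 0.05. That of Rpl34 went from -0.22 to -0.007. The 4 summed levels were 421 ± 32.2 and 445 ± 42.7 FPKM for Rps27, 354 ± 29.7 and 370.2 ± 10.7 FPKM for Rpl26, 148 ± 19.8 and 147 ± 13.9 FPKM for Rpl34, and 216 ± 10.5 and 219.7 ± 9.51 FPKM for Rpl30, the scrambled libraries first (SD, n = 4). FPKM of rows of different length are added here, so that a sum is an approximate level. As listed, these 4 genes would rank among the 9 lowest tested members, and with their copies each lies above 100 FPKM.

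Copy rows held less of the signal of other members. Among 10 further members with a copy row in the table, each such row held at most 9.06% of its sum with the member. In 48 of all 81 tested members, at least 25% of the transcript's 100-base windows also occur in another annotated gene. Their median difference was 0.065, and it was 0.082 in the 33 members below that share. Those 33 include Rpl26 (23.1%) and Rpl34 (2.82%), so this split does not separate members by the signal in a copy row.

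The stalk and the kinase target followed the rest. Rplp0, Rplp1 and Rplp2 form the stalk that recruits elongation factors, and their log2 differences were 0.09, 0.10 and 0.07 with standard errors of 0.069, 0.044 and 0.068. Rps6, which the S6 kinases phosphorylate below mTORC1, was listed at 174, 146, 172 and 167 FPKM in the scrambled libraries and at 164, 183, 165 and 188 FPKM in the anti-miR-29a libraries. The groups overlapped, with a difference of 0.09 (standard error 0.069). Members with the pyrimidine tract at the annotated start had a median difference of 0.070 (n = 13) and those without 0.065 (n = 47).

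Ribosomal proteins outside the name rule lay in the same range. All 5 in the list had a difference above 0, with a median of 0.10 and 0 at an unadjusted p under 0.05. Those of smallest p were Fau (0.10), Rpl36al (0.12) and Rps27rt (0.14), with adjusted p from 0.645 to 0.689 in limma.

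Other genes of the translation pathway showed no gene past the adjusted threshold in limma. Of 16 other mRNAs with a TOP, 9 (56.25%) had a difference above 0 (median 0.03), near the 56.6% of all tested genes. There were 2 higher (Pabpc1 0.15 and Tpt1 0.10) and 1 lower (Hnrnpa1 -0.18) at an unadjusted p under 0.05, where 7.54% of all genes were higher and 3.18% lower. Of 32 initiation factors, 21 (65.6%) were above 0 (median 0.04), with 3 higher (9.38%), namely Eif5a (0.14), Eif1b (0.18) and Eif2b4 (0.35). Of 7 elongation and termination factors, 4 were above 0 (median 0.006), and Etf1 (-0.17), Eef2k (0.11) and Gspt1 (-0.07) had the smallest p.

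Genes that make ribosomes also lay mostly above 0. Of 43 biogenesis factors, 33 (76.7%) were above 0 (median 0.11), where 56.6% of all tested genes were, and 5 (11.6%) were higher at an unadjusted p under 0.05, where 7.54% of all were. Of smallest p were Nop10 (0.26) and Nhp2 (0.30), both of the H/ACA particle that modifies rRNA, and Brix1 (0.32). Nop10 was listed at 35.0, 36.3, 30.3 and 28.5 FPKM in the scrambled libraries and at 38.4, 38.3, 39.0 and 39.2 FPKM in the anti-miR-29a libraries, with no overlap and an adjusted p of 0.283 in limma. Of 15 genes of RNA polymerase I and its factors, 10 (66.7%) were above 0 (median 0.07) and 3 (20%) were higher, namely Polr1c (0.31), Taf1b (0.33) and Taf1c (0.38).

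The mTORC1 list had a median of -0.04, with 8 of 19 above 0. Tbc1d7, a subunit of the TSC complex that restrains mTORC1, was listed at 7.17, 9.33, 5.71 and 8.75 FPKM in the scrambled libraries and at 9.67, 12.3, 10.9 and 10.6 FPKM in the anti-miR-29a libraries. The groups did not overlap, and the difference was 0.50 (standard error 0.15) with an adjusted p of 0.273 in limma. Rps6kb2, an S6 kinase, had a difference of 0.22, and Eif4ebp1, which holds back initiation, -0.35 (adjusted p 0.502).

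Mitochondrial ribosomal proteins are also made from nuclear genes and serve the separate ribosome of the mitochondrion. Of 48 in the large subunit, 35 (72.9%) were above 0 (median 0.09), where 56.6% of all tested genes were. At an unadjusted p under 0.05 there were 5 higher (10.4%, where 7.54% of all genes were) and 1 lower (2.08%, where 3.18% were), and Mrpl24 (0.24), Mrpl47 (-0.46) and Mrpl48 (0.22) had the smallest p. Of 29 in the small subunit, 20 (69.0%) were above 0 (median 0.09), with 4 higher (13.8%) and Mrps22 (0.37), Mrps26 (0.24) and Mrps36 (0.20) of smallest p. Their medians were close to the 0.073 of the cytosolic members, and no test of the difference was made.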

How the data were processed

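RNA was sequenced in 8 samples of mouse visual cortex, 4 per group. The deposited values are FPKM, fragment counts scaled to transcript length and library size. Per the submitters' processing notes, the authors used CASAVA 1.8.2, Bowtie and Cuffnorm with the build mm10. How Cuffnorm scaled the libraries, which annotation and filters it had and in which order the tools ran is not given in the sources used here. Per the labels' protocols, each sample was sequenced in paired reads of 100 bp, to about 30 M reads. The counts behind each value are unknown, and no counting interval is given. Precision is limited by the 4 libraries per group.

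Values were taken as log2(FPKM + 0.1), a scale that understates the change of low genes. A row was tested if its mean over all libraries reached 0.5 FPKM, as 13912 of 24883 did. The fit was made in limma 3.58.1 (R 4.3.3), with the group as its single term and a trend of the variance on the mean. Its p-values are two-sided and adjusted by Benjamini-Hochberg over all 13912 rows, and the threshold was 0.05. Single genes also had an exact two-sided permutation test over 70 relabellings, whose smallest p is 0.0286. On simulated data, 5 runs over the 13912 rows with 200 changed genes each, the fit recovered 43.2% of genes at a log2 shift of 0.5. It recovered 74.4% at 1, 82.8% at 1.5 and 92.4% at 2. These shares are pooled over genes of all levels, with noise independent between genes, and were not computed for the members alone.

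GENCODE M21, on the assembly of mm10, gave gene positions, longest coding transcripts and 3' UTRs. Start windows and microRNAs came from RefSeq tables of GRCm38.p6. Summaries were made with Python 3.11.15, pandas 2.3.3 and numpy 2.4.6.

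The members, the gene lists and the alternatives were chosen with earlier results of these data known, and no list was tested as a set. The rule for members named was the 5 of smallest p, the 3 highest and the 3 lowest in each subunit, those with a like-named paralogue and their parents, those whose groups do not overlap, those below the filter, the stalk and 5S RNP genes, and Rps6. Each pathway list gives its 3 genes of smallest p. Some list members are left out of the text and not reported here. Other genes named were chosen after their values were seen. The alternatives were pseudocounts of 1 and 0.01, no filter or one at 5 FPKM, quantile normalization, median centring, removal per library of a smooth curve on length and GC content, the replicate number as a block, sample weights, robust empirical Bayes, and each library left out. Summing copy rows, which share sequence with a member, with that member was added after seeing the data.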

Additional observations from a re-analysis of the deposited data

Results flagged for a closer look

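In 7 of 164 groups of 4 libraries (4.27%), counted over the members, 1 library lay far from the other 3, with a gap that took up most of the group's range. Chance gives such a library in about 1 in 20 groups, so this number is near it. Of the 7, 4 were scrambled replicate 2, which was low in each: Rpl36a was listed there at 100.1 FPKM where the other scrambled libraries had 144 to 153 FPKM. Rpl9 was listed there at 235 FPKM where they had 281 FPKM, Rps16 at 235 FPKM where they had 291 to 300.3 FPKM, and Rps29 at 347 FPKM where they had 409.9 to 417 FPKM. In scrambled replicate 4 Rps21 was listed at 328 FPKM, against 352 to 354 FPKM in the others. In anti-miR-29a replicate 3 Rps3a1 was listed at 233 FPKM, against 254 to 259 FPKM in the others. In anti-miR-29a replicate 4 Rps27 was listed at 57.6 FPKM, against 1.29 to 6.34 FPKM in the others, and this is the gene whose retrogene row holds most of the signal.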

How the results depend on the processing

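No member passed the adjusted threshold in limma under any of the alternatives run, including robust empirical Bayes, which called 10 genes in all. The genes called in all were 2, and 1 with no filter or a mean of at least 5 FPKM, 0 after removal of the length and GC trend or with the replicate block, and 1 to 3 with a library left out. The labels state no pairing of samples by replicate number. Correlations of same-numbered deviations were -0.086, 0.014, -0.11 and -0.097. The deviations are centred within each group of 4, so these values cannot exclude a pairing. With the replicate block 8 members were higher and 2 lower at an unadjusted p under 0.05, against 11 and 1. The higher count was 1 under quantile normalization, 4 under median centring, 0 after removal of the trend and 5 to 17 with a library left out. The lower count, Rpl26, was 0 with a pseudocount of 1, with no filter, with a mean of at least 5 FPKM, under robust empirical Bayes and with copy rows added, 2 after removal of the trend, and 0 to 1 with a library left out. Members above 0 numbered 46 under quantile normalization, 24 after removal of the trend and 52 to 75 with a library left out. The large subunit median was -0.044 after removal of the trend. That setting also reversed Rpl10 (-0.013), Rpl3 (-0.098), Rpl30 (-0.0098), Rpl41 (-0.027), Rpl7 (-0.075), Rplp0 (-0.0499), Rplp1 (-0.0061), Rplp2 (-0.067), Rps15 (-0.052), Rps29 (-0.024), Rps4x (-0.025), Rps6 (-0.0305), Fau (-0.017) and Tpt1 (-0.043). Quantile normalization reversed Rpl3 (-0.011), Rpl41 (-0.041), Rpl7 (-0.033), Rplp1 (-0.051), Rps15 (-0.073) and Rps29 (-0.018). Rpl7 was also reversed by median centring (-0.0196) and sample weights (-0.0031). Adding copy rows reversed Rpl26 (0.066) and Rps27 (0.0803), where the added row holds most of the sum. Rpl34, where it also does, stayed below 0 (-0.0067). With a library left out the range crossed 0 for Rpl3 (-0.0026 to 0.072), Rpl30 (-0.079 to 0.35), Rpl34 (-0.57 to 0.096), Rpl38 (-0.093 to 0.019), Rpl5 (-0.0014 to 0.12), Rpl7 (-0.037 to 0.055) and Rps15 (-0.0077 to 0.0798). The cause of the reversals was not tested. The counts behind each value are unknown here, and the differences of 51 of 81 members were under 0.1 in size, below the smallest shift of 0.5 in the simulated data.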

Other observations

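Rps27l, a paralogue of Rps27 that p53 can induce, was the only tested member with a log2 difference above 0.3 and shared no 100-base window with another gene. It was listed at 11.4, 11.5, 6.66 and 5.40 FPKM in the scrambled libraries and at 9.20, 13.4, 11.4 and 13.0 FPKM in the anti-miR-29a libraries. Scrambled replicates 3 and 4 were the lowest, scrambled replicates 1 and 2 lay within the treated range, and the difference was 0.48 (standard error 0.24, adjusted p 0.502 in limma, exact permutation p 0.229).

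Rps15a was listed at 16.4 FPKM or less in every library, and its longest coding transcript, of 5179 nt, is the longest of the tested members. The length by which the table divided its fragments is not given in the sources used here.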
